A study of Prunus persica with 8 samples.

Results

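In lateral shoot tips of peach (Prunus persica), 132 genes were either off, at 0.5 CPM or less, or on, at 1 CPM or more, in each of 8 trees, without the off trees being exactly the trees of one growth habit. Of these, 79 were off in more weeping than standard trees, 29 of them in weeping tree 1 alone. A further 26 were off in more standard than weeping trees, and 27 in as many of each. The lean was reversed in genes whose states lay 10-fold or more apart. There 8 were off in more weeping trees, 17 in more standard trees and 16 in as many of each. These counts take linked genes singly, and the 41 genes held only 21 combinations of scaffold and pattern. For example, 4 of the 17 were off in standard tree 8 alone, all on scaffold 4. In genes with states under 4-fold apart, the counts were 49, 5 and 5. Among the 13911 genes from which the 132 came, 1.75 to 3.31% were at 0.5 CPM or less per weeping tree. The share was 1.12 to 1.82% per standard tree. CPM is the number of exon reads of a gene per 1000000 gene reads of the library. The genes were taken from scaffolds 1 and 4 to 8, which list 21162 of the 27864 genes in the table. Both states had to occur, and at least 50% of the reads summed over trees had to map to a single place. The genes were thus chosen by their CPM in these 8 libraries, and those values are given below as a description, with no test.

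Each library came from 4 shoot tips of 1 mature, field-grown tree. The groups were 4 trees of weeping growth habit, trees 1 to 4, and 4 trees of standard growth habit, trees 7 to 10. All 8 belonged to one segregating F2 population from a cross of breeding parents, and none is a cultivar. Weeping branches bend downward, whereas standard trees carry an upright to spreading crown. The trees are named as biological replicates, and their genotype is known here only through the habit. Libraries held 17011614 to 21584724 gene reads, so the off limit allowed 8 to 10 reads. Weeping trees 3 and 4 were run in lane 8 and the other 6 trees in lane 6, per the column names, and 0 of the 132 genes separated the trees by lane.

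In an F2, the plants descend from a selfed or intercrossed F1. At any locus a plant may carry 2 copies of either grandparental allele, or 1 copy of each. A gene that fails to be transcribed or counted from one allele, and that is masked by a working copy, is expected to be off in 1 of 4 plants. Genes that sit close together on a chromosome are usually inherited together, so their states tend to be shared by the same siblings. The table pairs its gene identifiers with no names, so the genes below are given by position on the table's own scaffolds, and their functions are not known here.

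The 132 genes were 0.949% of the 13911 genes on these scaffolds that reached 1 CPM in at least 1 tree and met the same read-placement minimum. The share ranged from 0.635% on scaffold 5 (11 genes), 0.652% on scaffold 6 (16 genes) and 0.773% on scaffold 1 (31 genes) to 0.892% on scaffold 7 (17 genes), 1.19% on scaffold 4 (24 genes) and 1.84% on scaffold 8 (33 genes). The same limits gave 32 genes (1.57%) on scaffold 2 and 16 genes (0.837%) on scaffold 3. Scaffold 8 thus held the largest share of the 8 scaffolds. Across all scaffolds only 3 genes met the limits with the off trees being exactly 1 habit, and 1 of those lay on the 6 scaffolds described here.

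**Figure D1:**
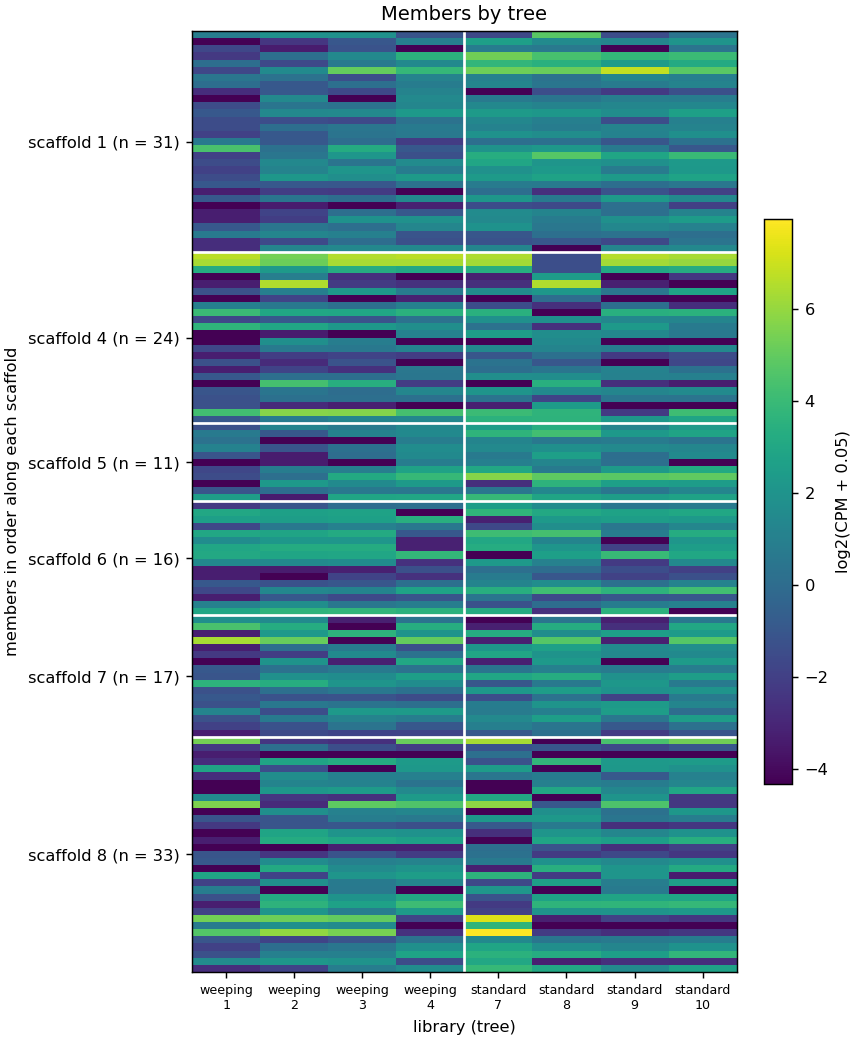
Level of each of the 132 genes (rows, in order along each scaffold) in each tree (columns, weeping trees left of standard trees), as log2 of CPM plus 0.05. Dark cells are off. Runs of rows with the same dark columns can be seen on scaffolds 4, 6, 7 and 8, and weeping tree 1 has the most off cells, 90 of 132.

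The genes were not switches of equal clarity. The gap between the states was measured as the lowest level among on trees over the highest level among off trees, with the off level taken as no lower than that of 3 reads. It was 10-fold or more in 41 genes, 4-fold to under 10-fold in 32 and under 4-fold in 59. These classes were set after the values had been seen. The 2 genes nearest to the off limit from below, on scaffold 7 from 21354775 to 21356685 and on scaffold 8 from 5070132 to 5074446, both peaked at 0.489 CPM among their off trees. The 2 nearest to the on limit, on scaffold 1 from 29464510 to 29465472 and from 36935377 to 36938726, had a lowest on level of 1.01 CPM. Just outside the limits, 2 genes on scaffold 4, from 27076137 to 27080425 and from 10370311 to 10374279, had 1 tree each at 0.503 CPM. Likewise 2 genes on scaffold 1, from 1500015 to 1500980 and from 34029320 to 34030841, had 1 tree each at 0.999 CPM. In all, 146 genes had both states but 1 tree between the limits, more than the 132 that met them.

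**Figure D2:**
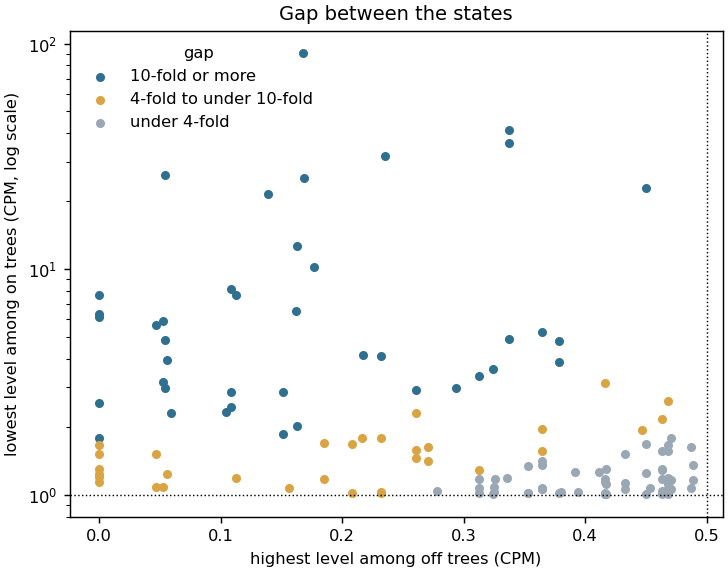
Lowest level among on trees (vertical, CPM, log scale) against highest level among off trees (horizontal, CPM) for the 132 genes, coloured by the gap between them. Dotted lines are the limits of 0.5 and 1 CPM. The 59 genes with a gap under 4-fold crowd into the lower right corner, whereas the 41 with 10-fold or more spread upward to 90.5 CPM.

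The clearest switch was ppa016247m.g on scaffold 4 from 4672446 to 4675072, on in weeping tree 2 and standard tree 8 alone. Weeping trees 1 to 4 had 0.052, 90.5, 0.168 and 0.118 CPM, and standard trees 7 to 10 had 0.108, 90.9, 0.054 and 0 CPM. Its 2 on trees, 1 of each habit, were almost equal, and the 6 off trees held 3 reads at most. Its lowest on level was 513-fold the off level, taken as that of 3 reads. Of its reads 99.4% mapped to a single place. A second gene with the same 2 on trees, on scaffold 4 from 1295405 to 1297010, was far weaker, at 1.85 CPM in weeping tree 2 and 5.51 CPM in standard tree 8.

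A different arrangement was found near the start of the same scaffold. Between 948249 and 1078771 a block of 3 genes was off in standard tree 8 alone. The gene at 948249 to 950195 had 103, 41.4, 94.3 and 101 CPM in weeping trees 1 to 4 and 87.5, 0.338, 96.0 and 80.1 CPM in standard trees 7 to 10. The gene at 958189 to 960082 had 82.5, 36.2, 80.4 and 81.2 CPM in weeping trees and 75.6, 0.338, 75.8 and 65.0 CPM in standard trees. In both, standard tree 8 was off, weeping tree 2 was the lowest of the on trees, and the other 6 trees lay close together. Only 68.6% and 52.4% of the reads of these 2 neighbours mapped to a single place, so reads could be shared between them or with another copy; the part of such reads in the values was not tested.

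The last gene of the block, at 1074893 to 1078771, had 97.3% of its reads at a single place and the same 2 lowest trees. It had 9.27, 4.91, 9.56 and 8.23 CPM in weeping trees 1 to 4 and 9.84, 0.338, 8.198 and 9.56 CPM in standard trees 7 to 10. Standard tree 8 was off and weeping tree 2 was the lowest tree that was on, while the order of the other 6 trees differed from that in its neighbours. Of the 26 genes listed in this span, 15 were on in all 8 trees, so the block was not silent as a whole. Another gene with the same pattern lay at 7941877 to 7944622, with 0 CPM in standard tree 8 and 7.66 to 16.7 CPM in the other trees. One more, at 9600252 to 9601770, had 0.113 CPM in standard tree 8 and 1.19 to 12.5 CPM in the other trees, with standard tree 7 and not weeping tree 2 the lowest of them. All 5 genes that were off in standard tree 8 alone were on scaffold 4.

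Further along scaffold 4, genes at 10384024 to 10385982 and 17175029 to 17176864 were on in weeping trees 2 and 3 and standard tree 8. The second of them had 0, 19.9, 10.2 and 0.176 CPM in weeping trees 1 to 4 and 0, 10.7, 0.109 and 0.0503 CPM in standard trees 7 to 10. A gene at 21259955 to 21262102 was on in standard tree 8 alone, at 5.29 CPM. The gene at 23335825 to 23343471 had other off trees. It had 18.8, 53.1, 51.7 and 20.05 CPM in weeping trees 1 to 4 and 16.2, 12.7, 0.163 and 17.7 CPM in standard trees 7 to 10. Standard tree 9 alone was off, and weeping trees 2 and 3 stood above the rest. Of its reads 52.5% mapped to a single place.

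Scaffold 8 held 15 of the 41 genes with a gap of 10-fold or more. A pattern of weeping tree 1 and standard tree 7 off, the other 6 trees on, was found in 11 genes between 2443060 and 14390719, a stretch of 11.9 Mb. Only 2 other genes had that pattern, 1 each on scaffolds 5 and 6. The stretch held 22 of the switched genes, 16 of them with a gap of 4-fold or more. Of these 16, 11 were off in weeping tree 1 and standard tree 7 and in no other tree, and 5 were off in weeping tree 2 and standard tree 8 with or without other trees. None of the 16 was off in trees of both pairs, but the ends of the stretch were set by the 11 genes. Read placement was mixed among the 16. The share of reads mapping to a single place was 100% at 6125037 and 6263557. It was 75.4% at 13062162, 53.8% at 10624086 and 50.0% at 2478012. The part of shared reads in the patterns was not tested. Some genes of the stretch with a gap under 4-fold did cross the pairs. That at 9399189 to 9403130 was off in weeping trees 1 and 2, and that at 9625111 to 9628119 was on in standard tree 8 alone. Those at 11753881 to 11757258 and 12210396 to 12212806 were on in standard tree 7 alone. So was a gene just before the stretch, at 2396085 to 2398345, with a gap of 6.13-fold. The stretch lists 1185 genes, of which 515 were on in all 8 trees.

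**Figure D3:**
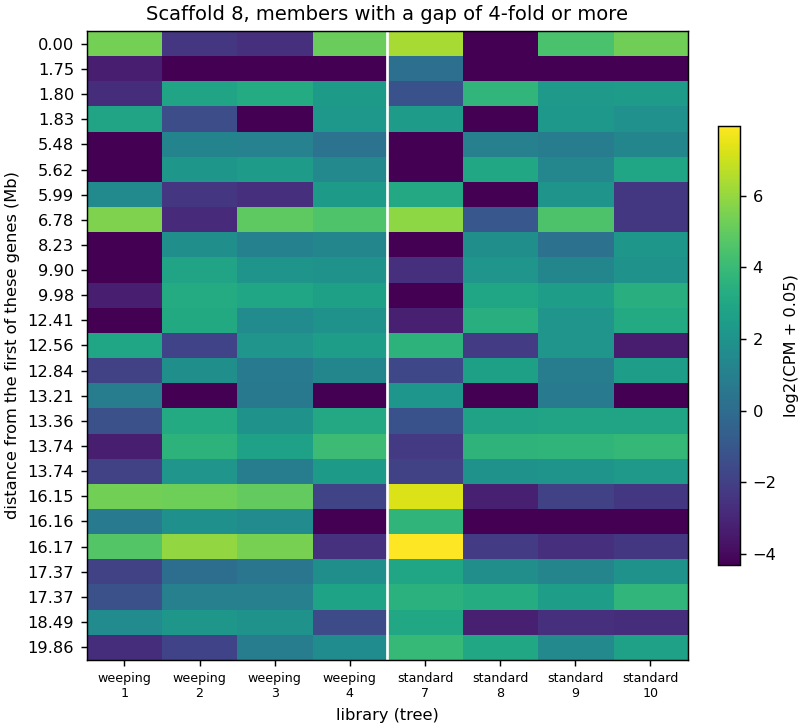
The scaffold 8 genes with a gap of 4-fold or more, in order along the scaffold (rows, labelled by distance in Mb from the first of them), in each tree (columns, weeping left of standard), as log2 of CPM plus 0.05. Rows dark in weeping 1 and standard 7 are mixed with rows dark in weeping 2 and standard 8. Rows dark in weeping 4 and standard 8 to 10 follow toward the end. Some rows differ: the gene at 2396085 is dark in all trees but standard 7. Near the end, the genes at 18016364 and 18020531 are dark in weeping 1 alone and that at 20503760 in weeping 1 and 2.

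The last 3 of the 11 genes formed a block at 14012148 to 14390719. The strongest, at 14384137 to 14386044, had 0.052, 12.2, 6.54 and 17.0 CPM in weeping trees 1 to 4 and 0.162, 12.7, 12.9 and 14.3 CPM in standard trees 7 to 10. The gene at 14012148 to 14013095 had 0.364, 9.03, 3.86 and 8.46 CPM in weeping trees and 0.379, 6.58, 7.06 and 7.15 CPM in standard trees. The gene at 14388203 to 14390719 had 0.208, 4.22, 1.79 and 5.11 CPM in weeping trees and 0.216, 3.94, 4.07 and 4.98 CPM in standard trees. In all 3, weeping tree 3 was the lowest of the 6 on trees. Of the reads of the gene at 14012148, 65.0% mapped to a single place, against 100% at 14384137 and 96.5% at 14388203.

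Interleaved with them were genes off in other trees. The gene at 7425213 to 7434713 had 47.8, 0.093, 30.1 and 23.5 CPM in weeping trees 1 to 4 and 58.1, 0.45, 22.9 and 0.151 CPM in standard trees 7 to 10. The gene at 13204665 to 13210262 had 7.39, 0.232, 4.14 and 5.58 CPM in weeping trees and 12.01, 0.169, 4.23 and 0.0503 CPM in standard trees. In both, weeping tree 2 and standard trees 8 and 10 were off, and the 2 highest trees were weeping tree 1 and standard tree 7, the trees in which the 11 genes above were off. Nearer the start, at 647856 to 650609, a gene had 41.6, 0.139, 0.112 and 35.5 CPM in weeping trees 1 to 4 and 82.2, 0, 21.6 and 38.8 CPM in standard trees 7 to 10. There weeping trees 2 and 3 and standard tree 8 were off, and standard tree 7 was again the highest.

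The 6 on trees of the 11 genes did not share one level. Each level was divided by the mean over the 6 on trees of that gene, and the median over the 11 genes was then taken tree by tree. Weeping trees 2, 3 and 4 stood at 1.16, 0.733 and 0.809, and standard trees 8, 9 and 10 at 1.00, 0.648 and 1.24. Weeping tree 2 and standard tree 10 were among the 3 highest on trees in 9 genes each, standard tree 8 in 6, and weeping tree 3 in 5. Weeping tree 4 was among them in 3 genes and standard tree 9 in 1. The ranges were wide, for example 0.445 to 1.22 in weeping tree 3, and the ranges of all 6 trees overlapped. In the gene at 13062162 to 13064706, weeping trees 1 to 4 had 0, 8.62, 2.96 and 3.88 CPM and standard trees 7 to 10 had 0.054, 10.6, 4.23 and 8.91 CPM. There the 3 higher on trees stood clear of the 3 lower ones, though other genes of the run, such as that at 14384137, did not show this order. No test was made, since the same levels chose the genes.

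**Figure D4:**
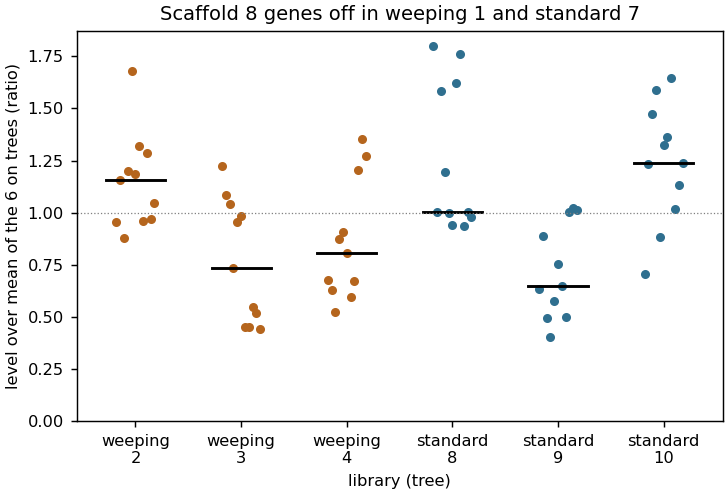
Level in each on tree over the mean of the 6 on trees (vertical, ratio) for the 11 scaffold 8 genes off in weeping 1 and standard 7, with weeping trees left of standard trees. Each point is 1 gene and each bar the median of the tree. Medians run from 0.648 in standard 9 to 1.24 in standard 10, and the ranges of the trees overlap.

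Toward the distal end of scaffold 8 the off trees changed. A compact block of 3 genes at 16797630 to 16817609, a span of 0.02 Mb that lists 4 genes, was off in weeping tree 4 and standard trees 8, 9 and 10. Its strongest gene was ppa015631m.g, at 16816271 to 16817609, which had 25.5, 63.1, 43.8 and 0.118 CPM in weeping trees 1 to 4 and 248, 0.169, 0.109 and 0.151 CPM in standard trees 7 to 10. The gene at 16797630 to 16799460 had 41.1, 37.3, 31.6 and 0.235 CPM in weeping trees and 156, 0.056, 0.217 and 0.151 CPM in standard trees. Standard tree 7, the one standard tree that was on, was the highest tree in both.

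The gene between them, at 16811884 to 16812512, had 1.67, 3.57, 2.96 and 0 CPM in weeping trees 1 to 4 and 12.9, 0, 0 and 0 CPM in standard trees 7 to 10. Standard tree 7 was again the highest. With the off level taken as that of 3 reads, the lowest on level of this gene was 9.45-fold the off level. Its reads all mapped to a single place, whereas 75.03% and 77.6% did for the 2 stronger genes at 16797630 and 16816271. Another gene with this pattern lay at 19137245 to 19140047, at 4.90 ± 2.34 CPM over its on trees (SD, n = 4 trees), and all 4 genes with the pattern were on scaffold 8.

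Patterns seen on 1 scaffold were also found on scaffolds 6 and 7. On scaffold 6, 3 genes between 4734152 and 6262145 were off in weeping tree 4 and standard tree 9 and on in the other 6 trees. The strongest of them, at 5601485 to 5606968, had 7.55, 9.27, 9.22 and 0.059 CPM in weeping trees 1 to 4 and 9.63, 4.16, 0.217 and 5.74 CPM in standard trees 7 to 10. In all 3 genes standard tree 7 was the highest and standard tree 8 the lowest of the on trees. A gene lying among them, at 5909713 to 5913369, was off in standard tree 7 alone, with 0 CPM, and was highest in weeping tree 4 (14.0 CPM) and standard tree 9 (15.2 CPM), the trees in which its neighbours were off.

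On scaffold 7, 3 genes between 2265592 and 4697427 were off in weeping tree 3 and standard trees 7 and 9. The strongest, at 4692074 to 4697427, had 81.7, 34.4, 0 and 32.6 CPM in weeping trees 1 to 4 and 0.054, 26.3, 0.054 and 26.1 CPM in standard trees 7 to 10. The gene at 2940856 to 2947543 had 21.7, 9.54, 0 and 10.1 CPM in weeping trees and 0.054, 9.73, 0.109 and 8.15 CPM in standard trees. In both, weeping tree 1 was well above the other on trees, which lay close together. A gene at 8552800 to 8554407 was off in the same 3 trees and in weeping tree 1 as well, and had 3.94 to 8.17 CPM in the 4 on trees.

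Neighbourhood was summarised over all 132 genes. Consecutive genes on this list that had the same off trees and starts at most 1 Mb apart were counted as a block, which gave 10 blocks with 23 genes. The count was 38 without weeping tree 2, 36 without weeping tree 3, 10 when 80% of reads had to map to a single place, and 11 among the genes with a gap of 10-fold or more. Of the 105 pairs of genes within 1 Mb, 22.9% had identical off trees, against 6.03% of the 7066 pairs on different scaffolds. Among genes with a gap of 10-fold or more, 9 of 20 pairs within 1 Mb had identical off trees, 10 shared no off tree, 1 had the off trees of one gene inside those of the other, and 0 overlapped in part. On different scaffolds, 1.41% of 639 such pairs were identical and 115 overlapped in part. Among genes with a gap under 4-fold, 1 of 17 pairs within 1 Mb was identical, against 8.98% of 1381 pairs on different scaffolds. Pairs share genes and are not independent, so these shares carry no test.

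Over all 132 genes, 44 of the 252 patterns of off trees that the limits allow were seen, 25 of them once. Of the 1056 combinations of gene and tree, 358 (33.9%) were off. A recessive off state in 1 of 4 plants gives 27.7% after the same conditions on the pattern, and one in 3 of 4 plants gives 72.3%. Counting each pattern once per scaffold left 68 combinations, with 40.1% off.

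The number of off trees per gene was set beside the same ratios. With an off genotype in 1 of 4 plants, 29.7% of genes would be off in 1 tree, 34.7% in 2, 23.1% in 3 and 9.37% in 4. Of the 41 genes with a gap of 10-fold or more, 29.3% were off in 1 tree, 31.7% in 2, 14.6% in 3, 12.2% in 4, 4.88% in 5, 4.88% in 6 and 2.44% in 7. Under that ratio 2.57% would be off in 5 trees, 0.428% in 6 and 0.041% in 7. Counted once per scaffold and pattern, these genes gave 21 combinations, with 33.3% off in 1 tree, 23.8% in 2 and 14.3% in 3. Of all 132 genes, 36.4% were off in 1 tree, 33 genes in 2 trees and 13.6% in 3, and 11.4% were off in 7 trees, against 0.041% under that ratio and 29.7% where 3 of 4 plants are off. No test was made, as linked genes are not independent.

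**Figure D5:**
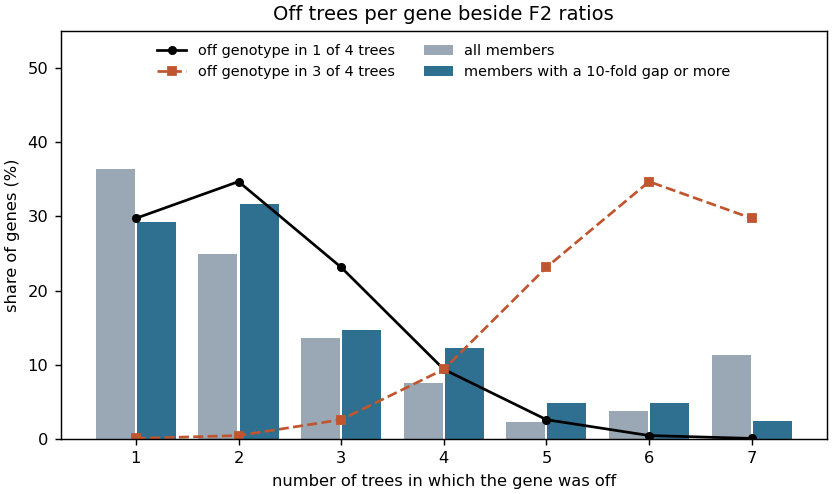
Share of genes (vertical, %) by the number of trees in which the gene was off (horizontal), for all 132 genes and for the 41 with a gap of 10-fold or more, with the shares given by an off genotype in 1 of 4 or 3 of 4 plants. The 41 genes fall mostly at 1 and 2 trees, and all 132 genes together have a second, smaller peak of 11.4% at 7 trees.

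The 15 genes that were on in a single tree were mostly weak. Their on level had a median of 1.13 CPM, 13 of the 15 were below 2 CPM, and 11 had a gap under 4-fold. The strongest was the scaffold 4 gene at 21259955, at 5.29 CPM in standard tree 8, and the next was on scaffold 1 at 13182041 to 13183263, at 2.17 CPM in weeping tree 4. At these levels a tree just over the on limit and trees just under the off limit differ by few reads.

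Weeping tree 1 was off more often than any other tree. Weeping trees 1 to 4 were off in 90, 50, 39 and 40 of the 132 genes, and standard trees 7 to 10 in 38, 30, 39 and 32. Weeping tree 1 was the only off tree in 29 genes, spread over all 6 scaffolds, whereas any other tree was the only one in 6 genes at most. The same tree also had the most genes at 0.5 CPM or less among all 13911 genes, 3.31%, against 1.75 to 2.24% in the other weeping trees and 1.12 to 1.82% in standard trees. The part of this tree-wide difference in the count of switched genes was not tested. Without weeping tree 1 the same limits gave 109 genes, of which 101 were among the 132.

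Of those 29 genes, 3 had a gap of 10-fold or more and 15 had one under 4-fold. Their median level was 0.364, 1.62, 1.84 and 2.53 CPM in weeping trees 1 to 4 and 4.65, 4.16, 3.20 and 4.78 CPM in standard trees 7 to 10, so weeping trees lay below standard trees as a rule. The tree with the highest level was a standard tree in 28 of the 29. An example on scaffold 5, at 12309092 to 12311908, had 0.312, 1.07, 8.72 and 14.7 CPM in weeping trees 1 to 4 and 52.8, 29.7, 27.9 and 31.1 CPM in standard trees 7 to 10. No weeping tree of that gene reached a standard tree, although only 1 tree was off. The gene on scaffold 1 at 7223301 to 7225340 was similar, with 0.156, 1.07, 2.74 and 11.8 CPM in weeping trees and 39.5, 20.7, 13.8 and 16.6 CPM in standard trees.

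Another strong gene off in weeping tree 1 alone, on scaffold 1 at 9052078 to 9052843, had 0.26, 2.92, 32.9 and 14.5 CPM in weeping trees 1 to 4 and 38.2, 36.0, 113 and 28.4 CPM in standard trees 7 to 10. Its groups overlapped, since weeping tree 3 lay above standard tree 10. On scaffold 8, 2 adjacent genes were off in weeping tree 1 alone. The gene at 18016364 to 18017897 had 0.208, 1.02, 1.34 and 3.47 CPM in weeping trees 1 to 4 and 7.41, 3.26, 2.33 and 3.73 CPM in standard trees 7 to 10. The gene at 18020531 to 18021060 had 0.364, 1.99, 1.96 and 6.94 CPM in weeping trees and 11.3, 9.51, 5.86 and 13.4 CPM in standard trees. Their gaps were 4.90-fold and 5.37-fold, and in both weeping tree 4 lay within the range of the standard trees.

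Whether these genes nevertheless differed between habits was read from the edgeR quasi-likelihood test on all genes. Over 18520 tested genes 11.5% had an adjusted p under 0.05 for weeping against standard trees, 5.33% higher and 6.18% lower in weeping trees. Of the 132 genes, 109 had reads in enough libraries to be tested, and 14 of them were called, all lower in weeping trees. The genes not tested were those off in 5, 6 or 7 trees. By edgeR 0 were called higher, with 3 higher and 32 lower at an unadjusted p under 0.05, and DESeq2 called 2 higher and 25 lower. Over all 18520 genes DESeq2 called 3872, with 1903 higher and 1969 lower in weeping trees. The limits on the levels chose these genes and left out those whose off trees were exactly one habit, so nothing is read from their count. By class, 13 of the 14 had a gap under 4-fold, 1 had a gap of 4-fold to under 10-fold, and 0 of the 36 tested genes with 10-fold or more were called.

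The fold changes come from the same levels that set the genes and the classes, so they are given as a description. The median log2 fold change, weeping over standard, was -0.01 among tested genes with a gap of 10-fold or more, 18 lower and 18 higher. It was -1.05 for gaps of 4-fold to under 10-fold and -1.21 for gaps under 4-fold, where 37 genes were lower and 7 higher, beside 0.01 over all tested genes. Among the 41 genes with the widest gaps, 46 of 164 weeping states and 59 of 164 standard states were off (28.05% and 36.0%). Linked genes with one pattern were counted singly there, so these states are not independent. Among the 59 genes with a gap under 4-fold, the counts were 120 of 236 weeping and 56 of 236 standard states. Of the 14 called genes, the one with the smallest adjusted p lay on scaffold 7 at 11494124 to 11496550, with 0.364, 1.07, 1.45 and 1.12 CPM in weeping trees 1 to 4 and 4.65, 5.68, 3.8004 and 4.03 CPM in standard trees 7 to 10. The groups did not overlap, and the log2 fold change was -2.20 ± 0.34 (SE; adjusted p = 0.0149 by edgeR). The largest fall was on scaffold 1 at 30386456 to 30388356, where weeping trees had 0.208, 1.34, 4.36 and 0.353 CPM and standard trees had 9.90, 25.9, 7.33 and 15.9 CPM. There too the groups did not overlap, with a log2 fold change of -3.27 ± 0.77 (SE; adjusted p = 0.0322 by edgeR).

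The count of 14 moved with single trees, and so did the count over all genes, 2131 of 18520 with all trees. Leaving out weeping tree 1, 2 or 3 gave 3, 0 and 3 calls among these genes, all lower in weeping trees. Over all genes those fits called 426 of 18675, 20 of 18658 and 433 of 18672. Without weeping tree 2, edgeR gave 2 of these genes higher and 24 lower at an unadjusted p under 0.05. Leaving out standard tree 8 or 10 gave 1 and 2 calls, leaving out weeping tree 4 gave 27 and lane 6 alone gave 25, again all lower. The calls over all genes were 255 of 18628, 446 of 18626, 3923 of 18718 and 1873 of 18916. Calls higher in weeping trees appeared without standard tree 7, 1 higher and 2 lower, and without standard tree 9, 3 higher and 18 lower. Those 2 fits called 471 of 18631 and 3375 of 18671 over all genes. Some of the clearest switches could not enter the test: ppa016247m.g was among the 23 genes removed for too few libraries with reads. In shoot tips, which are mixed tissue, fewer cells of a type and less RNA per cell cannot be told apart.

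Even when on, these genes were mostly weak. On-state levels per gene length, in RPKM over the gene span, ranged from 0.178 to 61.9 with a median of 1.80, against a median of 7.87 for the 12436 genes on these scaffolds that were on in all trees. The median was 3.34 RPKM for gaps of 10-fold or more and 0.945 for gaps under 4-fold. The highest was the scaffold 8 gene at 16816271, at 61.9 RPKM, followed by the scaffold 1 gene at 9052078, at 43.3, and the scaffold 4 gene at 948249, at 38.6. The gene span had a median of 1898 bp, against 2744 bp for genes on in all trees. Levels also varied among on trees: the highest was a median of 2.90 times the lowest over the 117 genes with at least 2 on trees. It was 1.59 times over 8 trees for genes on in all of them. The 117 genes were chosen by differences in these levels and were mostly weaker, so the 2 values are a description only. The part of selection and low counts in the difference was not tested.

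Off states were close to silent in many genes but not in all. Of the 358 off states, 79 had no read, and 11 genes had no read in any off tree. In 63 of the 132 genes every read mapped to a single place, and in 93 at least 90% did. Only 2 genes overlapped the span of another listed gene, both off in weeping tree 1 alone.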

How the data were processed

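The authors deposited 1 table with, per library and per the file headers, counts of total exon reads (reads mapping to several places included), counts of unique exon reads, and RPKM values. Per the labels' protocols, libraries were 50 bp unpaired TruSeq libraries from RNA extracted with 2% PVP, and per the file headers reads were trimmed before mapping. The aligner, the genome build and the gene models' source are unstated (not given in the sources used here), and how reads of alleles unlike the reference were placed was not tested. A further 143 columns were left unused. Habit and tree number in a column's name tied it to its tree. The length of all 27864 genes equals the gene span; starts are read as counted from 0, since 2445 of 3176 lengths under 600 bp are then multiples of 3, and are printed counted from 1. None of the identifiers (0 of 27864) matched the RefSeq gene table, so no sequence is shown.

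CPM used total exon reads over the library sum. The habit comparison used edgeR 4.0.16 under R 4.3.3 (low counts removed by filterByExpr, minimum count 10, TMM, quasi-likelihood F-test, Benjamini-Hochberg at 0.05), and with DESeq2 1.42.0 as an alternative; the edgeR step was tested on simulated data. Tree numbers are not shared between habits, so nothing was paired. The trees are called biological replicates, so p-values measure the spread between these trees. The genes, limits, blocks and gap classes were chosen with earlier results of these data known. Genes described were the 12 of highest mean on-state CPM, the members of the 4 largest blocks, those nearest to the limits, and others chosen after their values were seen to show each pattern. A floor of 3 reads covers counting error only. Alternatives were other limits, scalings, read-placement minimums, unique reads, block distances, leaving out each tree and lane 6 alone. Figures used matplotlib 3.10.9 in Python 3.11.15.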

Additional observations from a re-analysis of the deposited data

Results flagged for a closer look

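Among 46 groups of 4 trees examined for a single tree far from the rest, 14 stood out, where chance gives about 1 in 20; genes chosen for having both states meet this criterion easily. On scaffold 4, weeping tree 2 stood apart at 41.4 CPM in the gene at 948249 and at 36.2 CPM in that at 958189, standard tree 8 at 0.338 CPM in both, and in the gene at 4672446 weeping tree 2 at 90.5 and standard tree 8 at 90.9 CPM. On scaffold 8, standard tree 7 stood apart at 0.379 CPM in the gene at 14012148, 0.162 at 14384137, 156 at 16797630, 12.9 at 16811884 and 248 at 16816271. Standard tree 9 stood apart at 113 CPM in the scaffold 1 gene at 9052078, and standard tree 7 at 52.8 CPM in the scaffold 5 gene at 12309092. The median on-state level of weeping tree 1 was 6.58 CPM, against 2.57 to 3.10 in the other weeping trees, taken over the fewer genes that were on in it.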

How the results depend on the processing

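The number of genes stayed within 1.5 times of 132 under TMM-scaled totals, unique reads, either read-placement minimum and lane 6 alone (101 to 155). Leaving out single trees gave 109 to 161. It was 50 with off at 0.25 CPM or less, 43 with on at 2 CPM or more and 41 with a gap of 10-fold or more, each of which keeps fewer genes by construction. The share of off states stayed between 30.2 and 37.5% under every alternative run. Genes in blocks numbered 13, 11 and 11 under those 3 settings, 10 with an 80% read-placement minimum, and 19 to 38 on leaving out single trees; with neighbours within 0.5 or 2 Mb they numbered 19 and 26. The median on-state level of 3.24 CPM was 5.22 with the lower off limit, 7.59 with the higher on limit and 7.59 with the 10-fold gap, and 2.61 to 3.29 on leaving out single trees. Over all genes the habit test called 2131, 3872 with DESeq2, and 20 to 3923 on leaving out single trees; among the 132 it called 14, 27 with DESeq2, 25 in lane 6 alone, and 0 to 27 on leaving out single trees; the cause was not tested. The gap classes and lane 6 alone were chosen after seeing the data. No paired analysis was possible because the tree numbers are not shared between the habits. Depth limits the weak genes, whose states differ by few reads.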
